A study of Mus musculus with 24 samples.

Results

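The expression of 49 guidance genes of the mouse was examined: 16 semaphorins and 7 plexins, 8 ephrins and 9 Eph receptors, 2 Slits and 3 Robo receptors, and 2 netrins and 2 Unc5 receptors. They were chosen by name, with earlier results of these data known, and their probes were found through the accession that the array gives for each probe. Of the 49 genes, 47 had a probe (73 probes in all, among 18749 gene symbols and 41174 probes), while Sema3g and Efna3 matched none. Where a gene had 2 or 3 probes (23 genes), the probe with the highest mean signal in the tissue was used.

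The study measured RNA from sorted endothelial cells of mice that lacked galectin-3 (KO) and of wild type mice (WT). Male C57BL/6J mice (WT) and mice of the strain B6.Cg-Lgals3 tm1Poi/J (KO) were 8 weeks old at the start and received a diet with 60% (HFD) or 12% (chow) of calories from fat for 8 weeks. Live CD105+/CD45- cells, about 10000 per sample, were sorted from the aorta and from leg muscle of 3 to 4 pooled mice, and each of the 8 groups (aorta or muscle, WT or KO, HFD or chow) holds 3 one-color arrays, 1 from each of 3 experiments. The aorta and muscle samples of one strain, diet and experiment came from the same pool of mice. The probe for Lgals3, the deleted gene, read higher in the array labelled KO than in its WT partner in 11 of 12 pairs, and whether it lies in the deleted part was not examined, so that this reading does not check the labels. The study's methods describe tests of the deletion in DNA, RNA and protein, not analysed here, and strain is given below as labelled. The arrays had between 59.5% and 75.7% of their spots well above background. Levels below are log2 of the signal over the array's 75th percentile of signal, so that 0 is the 75th percentile and -1 is one halving below it.

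Guidance molecules were first known for steering axons, and the same families act in blood vessels. Semaphorins bind plexins, with neuropilins as partners of the secreted class 3 members, and mostly repel or collapse the cells that receive them. Ephrins and Eph receptors are both bound to membranes and signal at cell contacts, where ephrin-B2 (Efnb2) marks arteries and its receptor EphB4 (Ephb4) marks veins. Slits are secreted ligands of Robo receptors, of which Robo4 is the endothelial member, and netrins signal through Unc5 receptors, of which Unc5b is the one best known in vessels.

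The 250 bases upstream of the annotated start are shown for 6 of these genes, taken from RefSeq on GRCm38.p6: the 2 Slits, which were higher in the aorta, then Efnb2, Ephb4 and Robo4, which were higher in muscle, and Ephb1, which differed between diets in muscle. Capitals mark the GC box GGGCGG on either strand (CCGCCC where it lies on the other strand).
Slit2, chr5:47982905-47983154, forward strand: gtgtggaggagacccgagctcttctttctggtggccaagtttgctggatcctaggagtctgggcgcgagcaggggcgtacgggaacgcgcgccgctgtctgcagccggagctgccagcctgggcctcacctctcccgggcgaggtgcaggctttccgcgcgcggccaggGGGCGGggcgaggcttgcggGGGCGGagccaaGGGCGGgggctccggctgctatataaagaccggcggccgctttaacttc
Slit3, chr11:35121206-35121455, forward strand: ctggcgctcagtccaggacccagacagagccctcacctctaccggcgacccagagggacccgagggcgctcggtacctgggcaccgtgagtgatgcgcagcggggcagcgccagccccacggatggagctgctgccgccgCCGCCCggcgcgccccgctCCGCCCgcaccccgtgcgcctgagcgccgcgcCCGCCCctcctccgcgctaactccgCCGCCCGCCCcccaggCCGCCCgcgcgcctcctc
Efnb2, chr8:8661243-8661492, reverse strand: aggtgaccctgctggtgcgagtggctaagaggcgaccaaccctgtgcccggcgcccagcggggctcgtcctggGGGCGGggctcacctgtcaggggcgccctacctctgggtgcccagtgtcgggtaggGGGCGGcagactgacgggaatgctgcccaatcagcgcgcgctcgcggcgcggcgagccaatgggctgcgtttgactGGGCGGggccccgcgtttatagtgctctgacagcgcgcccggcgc
Ephb4, chr5:137349859-137350108, forward strand: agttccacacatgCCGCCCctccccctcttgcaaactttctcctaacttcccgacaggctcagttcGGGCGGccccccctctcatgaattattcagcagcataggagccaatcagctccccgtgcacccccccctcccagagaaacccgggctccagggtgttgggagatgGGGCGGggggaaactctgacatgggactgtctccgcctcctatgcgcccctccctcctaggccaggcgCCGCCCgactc
Robo4, chr9:37401722-37401971, forward strand: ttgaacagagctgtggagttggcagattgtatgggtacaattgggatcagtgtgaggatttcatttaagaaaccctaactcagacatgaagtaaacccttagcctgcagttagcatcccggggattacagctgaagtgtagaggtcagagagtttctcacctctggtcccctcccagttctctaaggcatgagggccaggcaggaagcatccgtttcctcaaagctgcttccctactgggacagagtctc
Ephb1, chr9:102354694-102354943, reverse strand: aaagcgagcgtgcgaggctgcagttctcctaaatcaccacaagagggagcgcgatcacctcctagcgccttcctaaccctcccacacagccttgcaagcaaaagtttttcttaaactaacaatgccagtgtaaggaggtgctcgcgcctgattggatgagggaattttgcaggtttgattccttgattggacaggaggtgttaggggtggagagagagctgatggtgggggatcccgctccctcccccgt
The Slit2, Slit3, Efnb2 and Ephb4 windows held 3, 6, 3 and 4 GC boxes, and the Robo4 and Ephb1 windows held none. Robo4 had 2 CG dinucleotides in this window and Slit3 had 35. A promoter was found for 42 of the genes, of which 30 (71.4%) had a GC box, against 32.7% of all 32851 promoters in the table, and the median number of CG dinucleotides was 16 against 6. For each guidance gene only its first entry was counted, while the values over all promoters count every entry, with several for some genes. The guidance genes and the table were thus not counted alike. The box was in 9 of 14 promoters of genes higher in the aorta and in 11 of 13 of genes higher in muscle. Thus this feature was common on both sides of the tissue comparison described next.

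The expression of guidance genes was first compared between aortic and muscle endothelial cells, as the mean over the 4 strain and diet groups. Of the 44 genes that could be tested, 16 were higher in the aorta and 14 were higher in muscle. Both Slits, Epha3, Ephb2, Ephb3, Efna2, Efna5 and the class 3 semaphorins Sema3b, Sema3c and Sema3d were higher in the aorta. The receptors that endothelial cells are known for (Plxnd1, Ephb4, Epha2, Robo4 and Unc5b) and the ephrins Efna1, Efnb1 and Efnb2 were higher in muscle. Calls are at a Benjamini-Hochberg adjusted p under 0.05 in limma over all 27387 probes, of which 28.2% were called (11.5% higher in the aorta and 16.7% lower). The median difference was 0.25 over the guidance genes and -0.27 over all probes tested. Sema3e, Sema4b and Robo2 were not tested, since the probe used over both tissues was in no group well above background on all 3 arrays. Without experiment 2 the number higher in muscle was 2, and without experiment 1 it was 9, while the number higher in the aorta was 15 or 16 without any 1 experiment. Of the 16 higher in the aorta, 10 were not well above background on all 12 muscle arrays. A probe needed only 1 such group to be tested, so that genes dim in muscle entered through their aorta signal. Where only probes well above background on every array were tested (27 genes), 6 were higher in the aorta.

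**Figure D1:**
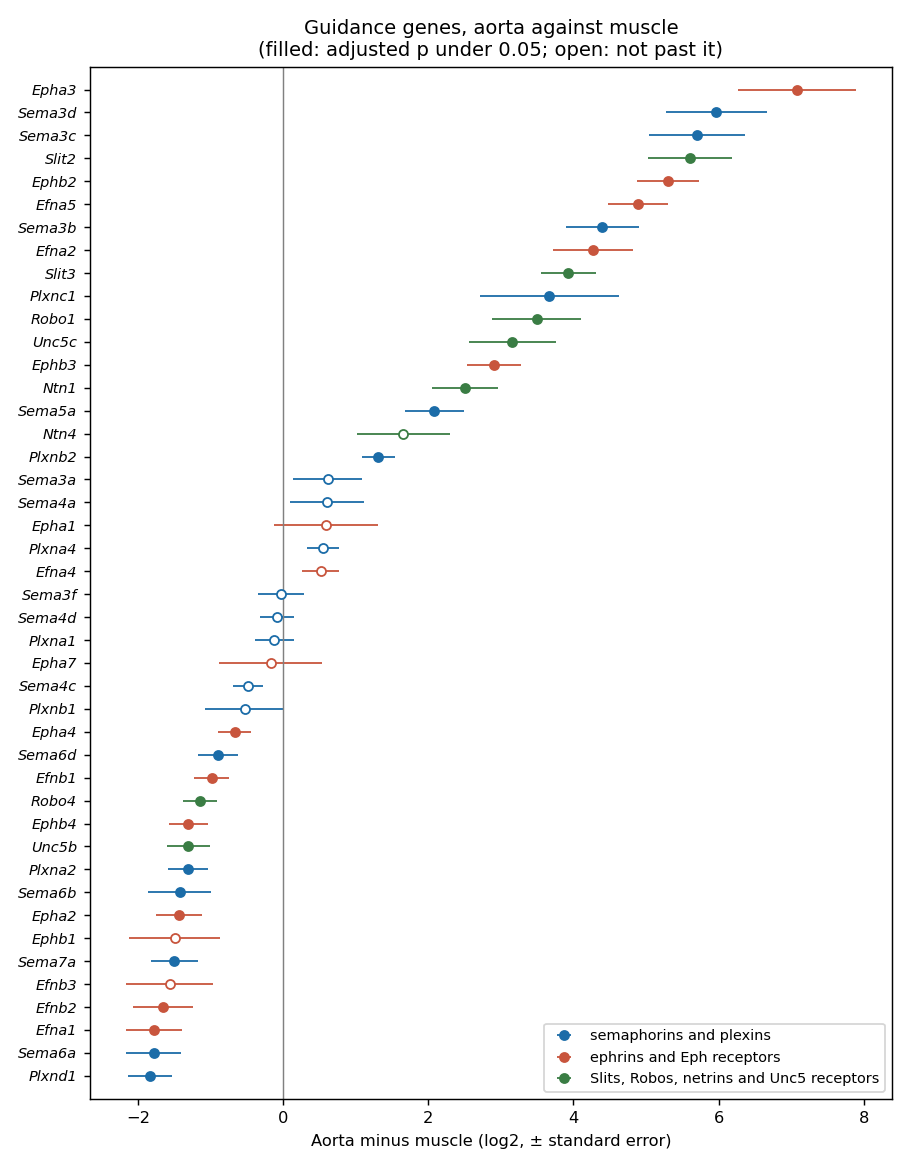
Difference between aorta and muscle (log2, horizontal axis) for each of the 44 tested guidance genes, ordered by size, with the standard error of the limma fit, filled where the adjusted p was under 0.05 and colored by family. Epha3, well above background on 6 of 12 muscle arrays, is plotted farthest to the right at 7.08 and Plxnd1 farthest to the left at -1.83.

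Slit2 lay between 0.05 and 2.51 (median 1.52) on the 12 aorta arrays and between -7.60 and -3.15 (median -3.97) on the 12 muscle arrays. Slit3 lay between 1.01 and 3.54 (median 2.53) in the aorta and between -2.62 and -0.05 (median -1.58) in muscle. Neither gene overlapped between the tissues, and all 3 experiments showed the same direction. The difference was 5.60 ± 0.58 (SE) for Slit2 (adjusted p = 1.32e-06, limma) and 3.93 ± 0.38 for Slit3 (adjusted p = 6.18e-07, limma). In experiments 1, 2 and 3 it was 5.42, 5.22 and 6.16 for Slit2 and 3.35, 3.93 and 4.51 for Slit3.

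Their receptors did not move as one group. Robo1 was higher in the aorta by 3.49 ± 0.62, with 6 of 12 muscle arrays well above background, while Robo4 was lower by 1.14 ± 0.23. Robo4 lay between 3.86 and 5.71 in the aorta and between 5.69 and 6.36 in muscle, so that the ranges overlapped slightly. Robo2 was well above background on 0 aorta arrays and 3 muscle arrays.

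Among the semaphorins, 4 were higher in the aorta, 4 were higher in muscle and 5 did not pass the test. Sema3b, a secreted ligand, ranged from 0.23 to 2.69 in the aorta and from -4.23 to -0.70 in muscle, a difference of 4.40 ± 0.50 without overlap. Sema3c differed by 5.71 ± 0.66 and Sema3d by 5.97 ± 0.70 (1 aorta array of Sema3d was an outlier spot and was left out), but only 1 and 4 of 12 muscle arrays were well above background for them. A fold against such a dim group is a bound, taken against the lowest signal that is well above background on each array. On this scale Sema3c was at least 16.8-fold higher in WT chow, 12.8-fold higher in KO chow and 27.1-fold higher in KO HFD aorta. Sema5a, a transmembrane member, was higher by 2.08 ± 0.40. The transmembrane Sema6a, Sema6b and Sema6d and the membrane-anchored Sema7a were all lower in the aorta, by 1.78, 1.43, 0.90 and 1.50 on the log2 scale, and of these Sema6a did not overlap. Sema3e, the ligand of Plxnd1, was well above background on 7 aorta and 4 muscle arrays, at medians of -4.92 and -6.85 over broadly overlapping ranges.

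Of the plexins, Plxnc1 (3.67 ± 0.96) and Plxnb2 (1.31 ± 0.23) were higher in the aorta, Plxnd1 and Plxna2 were lower, and 3 did not pass the test. Plxnd1, the endothelial semaphorin receptor, lay between -1.11 and 1.07 in the aorta and between 1.18 and 2.55 in muscle. It was lower by 1.83 ± 0.31 and did not overlap. Plxna2 was lower by 1.31 ± 0.27. Plxnc1 was well above background on 5 of 12 muscle arrays and its ranges overlapped, between -4.13 and -1.08 in the aorta and between -9.57 and -3.29 in muscle.

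The Eph family divided as well, with 3 receptors higher in the aorta, 3 lower and 3 that did not pass. Epha3 differed by 7.08 ± 0.81 (adjusted p = 3.76e-06, limma), with aorta values between -1.72 and 2.12 and muscle values between -8.44 and -4.45, where 6 of 12 arrays were well above background. Ephb2 was higher by 5.31 ± 0.43 and Ephb3 by 2.90 ± 0.37, and neither overlapped. Ephb2 was well above background on 1 of 12 muscle arrays, and the bound on its fold was at least 8.79 in WT chow, 9.15 in KO chow and 24.2 in KO HFD. Ephb4, the venous receptor of ephrin-B2, ranged from 0.46 to 1.93 in the aorta and from 2.04 to 2.74 in muscle and was lower by 1.31 ± 0.27. Epha2, which binds A-type ephrins in vessels, ranged from -0.11 to 1.91 in the aorta and from 1.92 to 2.97 in muscle and was lower by 1.43 ± 0.32. Epha4 was lower by 0.67 ± 0.23.

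Of the ephrins, Efna5 and Efna2 were higher in the aorta. Efna5 lay between 2.04 and 3.53 there and between -4.04 and -0.42 in muscle, a difference of 4.88 ± 0.41 (adjusted p = 1.64e-07, limma), and was well above background on all arrays. Efna2 was higher by 4.27 ± 0.55, with 2 of 12 muscle arrays well above background. Efnb2, the arterial ephrin, ranged from -1.50 to 1.99 in the aorta and from 1.42 to 2.75 in muscle. It was lower in the aorta by 1.65 ± 0.42, Efna1 by 1.78 ± 0.39 and Efnb1 by 0.98 ± 0.24, all with overlapping ranges. Thus both the arterial ligand and its venous receptor were lower on the aorta arrays.

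Among the netrins and their receptors, Ntn1 was higher in the aorta by 2.50 ± 0.46 and Unc5c by 3.16 ± 0.60, with 5 and 4 of 12 muscle arrays well above background. Ntn4, a basement membrane netrin, was well above background on only 8 aorta and 2 muscle arrays. It differed by 1.66 ± 0.64 and did not pass the test (adjusted p = 0.0609, limma). It passed with the pool of mice as the block (adjusted p = 0.00186), with no slide block (adjusted p = 0.0075) and with quantile normalization (adjusted p = 0.0417, all limma). Unc5b was lower in the aorta by 1.31 ± 0.30, with values between -0.98 and 1.47 in the aorta and between 1.07 and 2.71 in muscle. In all, 13 of the 44 genes did not overlap between the 12 aorta and the 12 muscle arrays, against 5.65% of all probes. Among the 13, Sema3d, Efna2, Epha3 and Ephb2 were well above background on only 4, 2, 6 and 1 of 12 muscle arrays. They entered the test through their aorta signal, so that their lack of overlap is not independent of the filter. Differences toward muscle were 1.59-fold to 3.57-fold. Of the 16 genes higher in the aorta, 6 were well above background on all 12 muscle arrays, and their differences lay between 2.49-fold (Plxnb2) and 29.5-fold (Efna5). The other 10 were near background on some muscle arrays, so that their folds are not exact and the order of their sizes was not measured. The 14 genes that did not pass had differences between -1.56 (Efnb3) and 1.66 (Ntn4). For all 13 tested genes with another tested probe, every probe had the same sign.

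**Figure D2:**
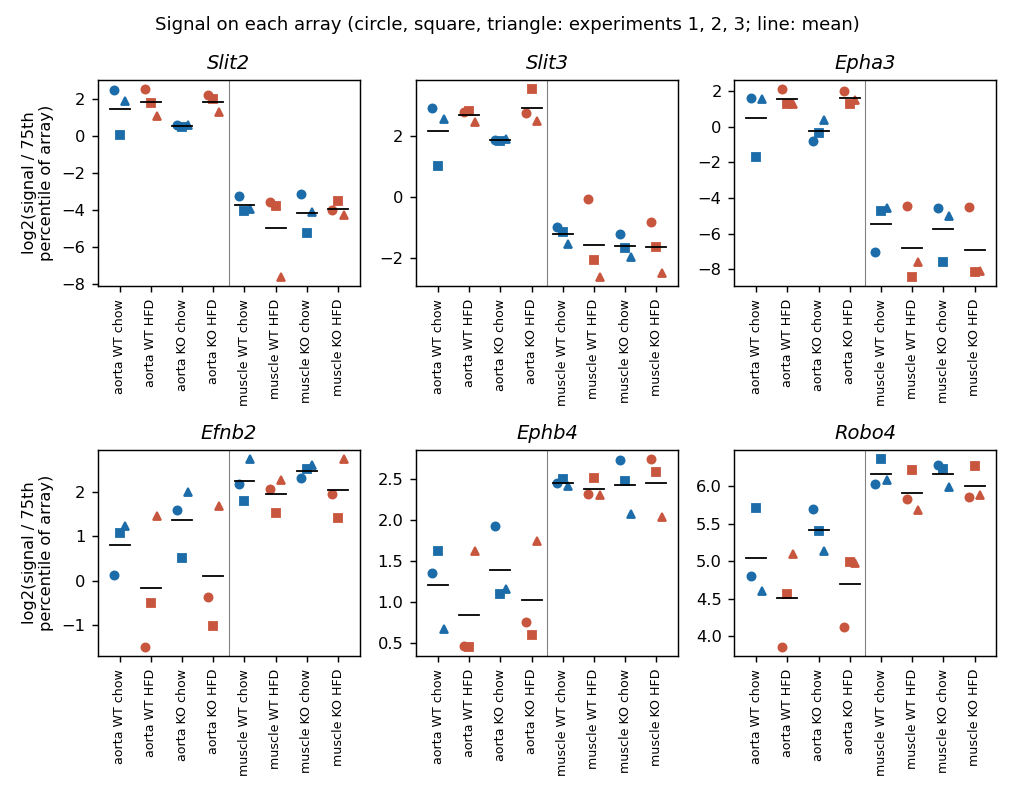
Levels of Slit2, Slit3, Epha3, Efnb2, Ephb4 and Robo4 on each of the 24 arrays (log2 of signal over the array's 75th percentile, vertical axis) by tissue, strain and diet, with symbols for the 3 experiments, blue for chow, red for HFD, and a line at each group's mean. Slit2 lies above 0 on all aorta arrays and at -3.15 or below on all muscle arrays, whereas Ephb4 lies higher on all muscle arrays.

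Within each strain and diet group the same comparison rests on 3 arrays against 3. The number of genes higher and lower in the aorta was 14 and 7 in WT chow (14.6% of all probes called), 17 and 11 in WT HFD (16.4%), 10 and 1 in KO chow (5.97%) and 15 and 11 in KO HFD (16.2%). The Slit2 difference in WT chow alone was 5.21 ± 0.85 and that of Slit3 3.39 ± 0.56. Efnb2 did not pass in WT chow (-1.43 ± 0.62, adjusted p = 0.127, limma).

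All 13 endothelial markers were well above background on all 12 arrays of each tissue. Markers of other cells moved with the tissue. All 8 fibroblast markers were higher in the aorta (median 4.48), and their summed level, in units of the 75th percentile, was between 261 and 605 on the aorta arrays and between 18.2 and 166 on the muscle arrays. The endothelial markers were lower in the aorta for 11 of 13 genes (median -1.08), with sums between 164 and 547 in the aorta and between 519 and 842 in muscle. Of the arterial endothelial markers, Sox17 (-1.26), Hey1 (-1.18) and Dll4 (-2.16) were lower in the aorta and Bmx (2.49) was higher. Gja4, Gja5 and Jag1 were not called. All 8 skeletal muscle fibre markers were lower in the aorta (median -6.75), with sums between 0.853 and 6.03 against 18.5 and 138. For lymphatic cells 3 of 6 markers and for adipocytes 4 of 7 markers were higher in the aorta and 1 adipocyte marker was lower (Lipe, -1.46), while 4 of 8 smooth muscle and 3 of 6 pericyte markers were lower, and 0 of 7 macrophage markers were called. The part of these cells in the guidance gene differences was not tested. In pooled cells of this kind, fewer cells of a type and less RNA per cell cannot be told apart.

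**Figure D3:**
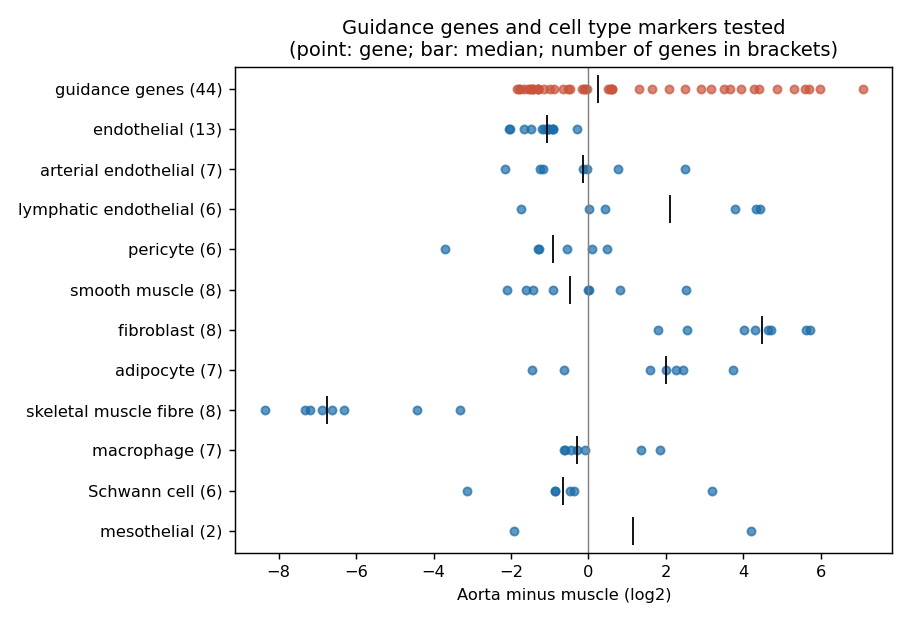
Difference between aorta and muscle (log2, horizontal axis) of the tested guidance genes and of the tested markers of each cell type, each point a gene and each bar the median of its list, with the number of genes in brackets. The 8 fibroblast markers lie to the right of 0 (median 4.48), the 8 skeletal muscle fibre markers to the left (median -6.75), and the guidance genes lie on both sides (median 0.25).

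Other genes of the pathway were compared between the tissues in the same way. Of 17 tested genes among 28 further members of these families and related guidance families, 6 were higher in the aorta (Plxna3, Ntn3, Flrt2, Dcbld2, Flrt3 and Rgma, by 1.39 to 4.05) and 0 were lower. Of 9 coreceptors, Met, the receptor of hepatocyte growth factor, was higher by 1.99, and 5 were lower: the neuropilins Nrp1 (-1.26) and Nrp2 (-1.25), the VEGF receptor Kdr (-1.01), Cspg4 (-1.29) and Sdc3 (-1.95). Of 46 tested intracellular effectors, 8 were higher, led by Srgap3 (4.72), which acts below Robo, and Tiam1 (4.08), an activator of Rac, and 18 were lower, among them Crmp1 (-2.23), an intracellular mediator of semaphorin signalling, and the actin regulators Evl (-1.73) and Enah (-1.64).

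The next comparison was HFD against chow in the aorta, as pairs within each strain and experiment. None of 44 tested guidance genes was called in WT, in KO or in the mean of both strains, where 0%, 0% and 0.0309% of all 25865 probes were called. Sema4b, Efnb3 and Robo2 were too dim in the aorta to be tested. At an unadjusted p under 0.05 (limma) there were 4 genes in WT (9.09%, against 5.77% of all probes), 12 in KO (27.3%, against 11.3%) and 13 in the mean (29.5%, against 15.1%). Plxnc1, Ephb2 and Ephb3 had the largest positive mean differences and Sema3e and Efnb2 the most negative ones, the Sema3e difference resting on experiment 3. By the methods' own test of the 3 ratios against 0, the unadjusted p was under 0.05 for 2 WT and 7 KO results and 0 passed after adjustment. The median difference in the mean of the strains was 0.21 over the guidance genes and 0.01 over all probes.

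Plxnc1, a plexin that binds Sema7a, was at -4.03, -3.38 and -3.18 in WT chow and at -1.82, -1.17 and -2.79 in WT HFD in experiments 1, 2 and 3. In KO it was at -4.13, -4.00 and -3.48 on chow and at -1.69, -1.08 and -1.86 on HFD. All HFD arrays were above all chow arrays. The mean difference was 1.96 ± 0.32 (adjusted p = 0.114, limma), and it passed when the pairs were not blocked (adjusted p = 0.0338) or when slide was the block (adjusted p = 0.0484).

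Ephb2, a receptor of B-type ephrins, was at -2.38, -3.95 and -3.02 in WT chow and at -1.65, -1.38 and -1.77 in WT HFD. In KO it was at -2.93, -2.56 and -3.52 on chow and at -1.08, -1.03 and -2.22 on HFD. The 6 HFD arrays were again above the 6 chow arrays, which held for these 2 genes (4.55%) and for 1.18% of all probes. The mean difference was 1.54 ± 0.27 (adjusted p = 0.125, limma).

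Ephb3 was at 0.68, -2.48 and -0.12 in WT chow, 0.86, 0.64 and 0.64 in WT HFD, -1.45, -1.32 and -1.91 in KO chow and 0.87, 0.57 and -0.00 in KO HFD. Its groups overlapped in WT, where 3 genes did not overlap (7.37% of all probes), and not in KO, and the mean difference was 1.70 ± 0.39 (adjusted p = 0.18, limma). With Plxnb2 (0.78 ± 0.27) and Unc5b (1.05 ± 0.28), these 3 genes were higher on HFD in all 6 pairs, which makes 5 of 44 genes (11.4%, against 5.77% of all probes). None was lower in all 6 pairs (4.49% of all probes).

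Efnb2 was at 0.12, 1.08 and 1.23 in WT chow and at -1.50, -0.51 and 1.47 in WT HFD. In KO it was at 1.59, 0.52 and 1.99 on chow and at -0.37, -1.02 and 1.68 on HFD. The pairs of experiments 1 and 2 gave differences of -1.54 or below in both strains, and experiment 3 gave 0.24 in WT and -0.31 in KO. The mean was -1.13 ± 0.34 (adjusted p = 0.245, limma). A second, dimmer Efnb2 probe, well above background on 4 of 12 arrays, had the opposite sign in WT (0.68 against -0.99).

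A log2 ratio past 1 in all 3 experiments was met by no guidance gene in WT (1.59% of all probes). In KO it was met by 5, all higher on HFD (11.4%, against 2.93% of all probes in either direction and 1.81% upward): Plxnc1 (2.32 ± 0.45), Ephb3 (2.04 ± 0.55), Epha3 (1.84 ± 0.64), Epha7 (1.75 ± 0.76) and Ephb2 (1.56 ± 0.39). The study itself lists Epha3, Ephb2, Ephb3, Slit2 and Slit3 among KO aortic transcripts past 0.75 between diets, from the same arrays. It lists Ephb2 for WT as well, and does not state that this cutoff holds in each experiment. The shares of guidance genes are therefore not an independent test. Efna2 (1.52 ± 0.49) was higher in all 3 KO pairs without passing 1 in each. Epha7 was well above background on 1 of 3 KO chow and 2 of 3 KO HFD arrays. The KO groups did not overlap for 14 genes (31.8%, against 14.2% of all probes), 11 higher and 3 lower on HFD. The number past 1 was between 6 and 15 when 1 experiment was left out, which leaves 2 pairs. Past the same criterion lowered to 0.75 were 8 genes, with Sema5a, Plxna1 and Ntn1 added, against 5% of all probes. In WT the remaining genes with the same sign in all experiments and the largest means were Robo1 (1.06 ± 0.66) and Unc5c (0.94 ± 0.44).

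**Figure D4:**
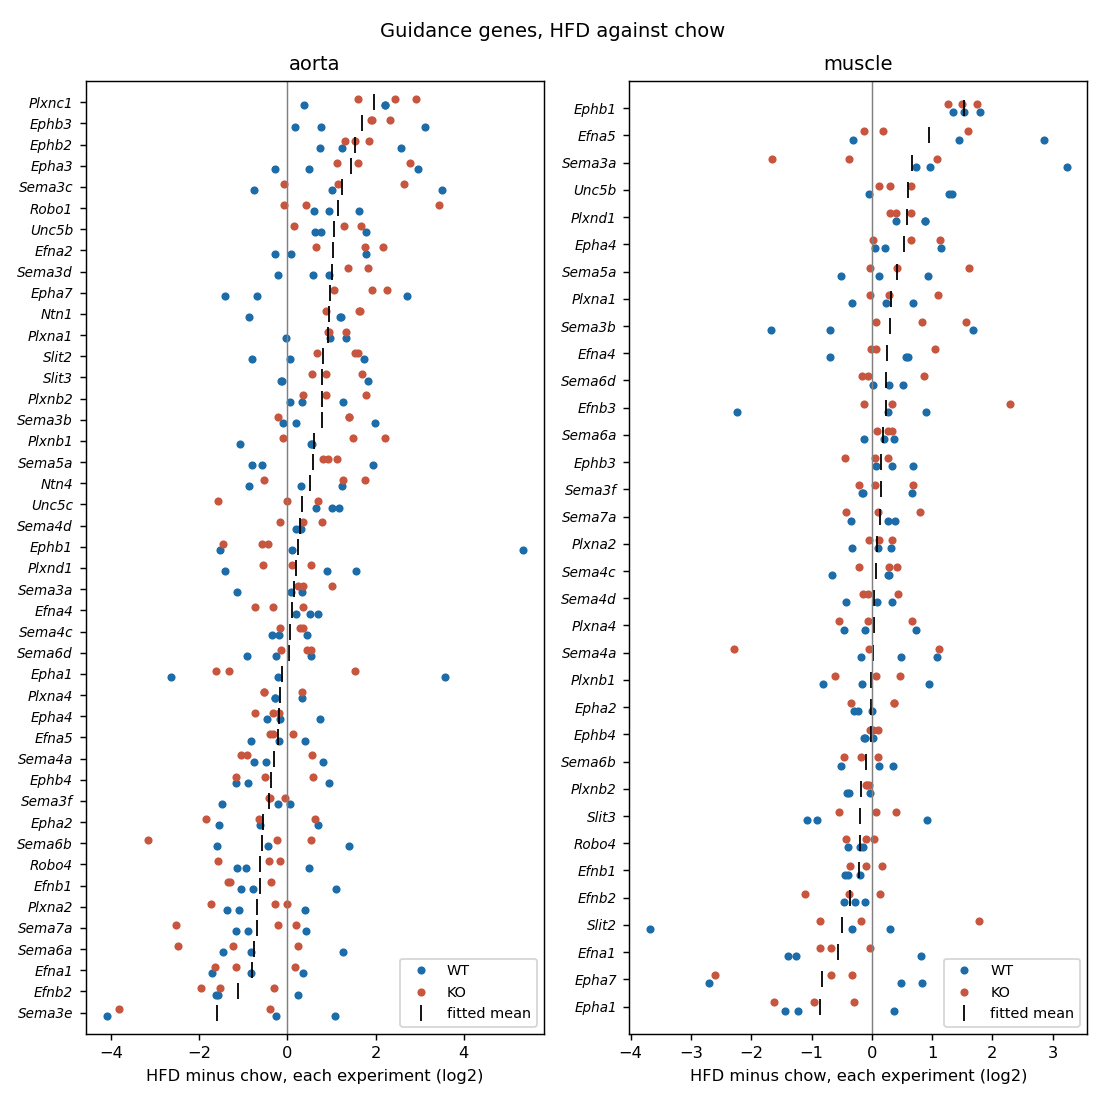
HFD minus chow (log2, horizontal axis) of the guidance genes tested in aorta (left) and muscle (right), each point the pair of 1 experiment in WT (blue) or KO (red) and each bar the fitted mean. Plxnc1 and Ephb2 lie above 0 in all 6 aorta pairs, and Ephb1 lies above 1 in all 6 muscle pairs.

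The other vascular genes had mean diet differences in the aorta that did not pass and whose experiments differed in sign. They were 0.19 ± 0.40 for Plxnd1, -0.80 ± 0.35 for Efna1, -0.56 ± 0.41 for Epha2, -0.36 ± 0.36 for Ephb4, -0.62 ± 0.31 for Robo4, 0.80 ± 0.35 for Slit2 and 0.52 ± 0.39 for Ntn4. For Slit3 the mean was 0.78 ± 0.33, with positive means of both strains in each experiment. For Sema3e, with 1 outlier spot left out, it was -1.60 ± 0.89, and 7 of 12 aorta arrays were well above background. Without experiment 3 the Sema3e value was 0.0038. For Slit2 the KO difference was 1.27 ± 0.49, with no overlap of the groups (unadjusted p = 0.0382 and adjusted p = 0.433, limma), and the WT difference was 0.33 ± 0.49. The difference between the strains was 0.95 ± 0.70 for Slit2 (adjusted p = 1, limma). A second Slit2 probe, well above background on all 12 aorta arrays, gave -0.04 for this difference.

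Beside these values, all 13 endothelial markers had negative diet differences in the aorta (median -0.59) and all 8 fibroblast markers positive ones (median 0.59), and 0 of either list were called (5 and 3 at an unadjusted p under 0.05, limma). The adipocyte markers had a median of -3.51, with sums between 106 and 321 on chow and between 13.8 and 36.8 on HFD, and 0 of 7 were called (6 at an unadjusted p under 0.05). The part of these cells in the diet values was not tested. Among the further guidance genes, coreceptors and effectors, 0 genes were called in any of the aortic diet comparisons, with 6 of 17, 2 of 9 and 11 of 46 at an unadjusted p under 0.05 (limma) in the mean of the strains.

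In muscle, 34 guidance genes could be tested, and 1, Ephb1, was called between the diets. The 13 genes with a probe that were too dim there were Sema3c, Sema3d, Sema3e, Sema4b, Plxnc1, Efna2, Epha3, Ephb2, Robo1, Robo2, Ntn1, Ntn4 and Unc5c. Ephb1, a receptor of B-type ephrins, was at -1.31, -2.33 and -2.36 in WT chow and at 0.04, -0.54 and -0.84 in WT HFD in experiments 1, 2 and 3. In KO it was at -1.46, -2.07 and -1.68 on chow and at 0.04, -0.33 and -0.41 on HFD. Every HFD array was above every chow array, over both strains (1.78% of all probes), and all 12 arrays were well above background.

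Ephb1 was higher on HFD by 1.35, 1.79 and 1.52 in the WT pairs and by 1.50, 1.74 and 1.27 in the KO pairs. The mean was 1.53 ± 0.15 (adjusted p = 0.0358, limma), and 0.288% of all 25682 probes were called in this comparison (0.167% higher). In each strain alone, where 0% (WT) and 0.00389% (KO) of all probes were called, the gene did not pass (WT 1.55 ± 0.21, adjusted p = 0.111, and KO 1.50 ± 0.21, adjusted p = 0.239, limma). The call was lost when any 1 experiment was left out (adjusted p = 0.259, 0.276 and 0.194 without experiments 1, 2 and 3), while the difference stayed between 1.41 and 1.60. Without a filter on dim probes the adjusted p was 0.143. Ephb1 alone of the guidance genes passed 1 in all 3 experiments, in WT (1.83% of all probes) and in KO (0.989%).

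**Figure D5:**
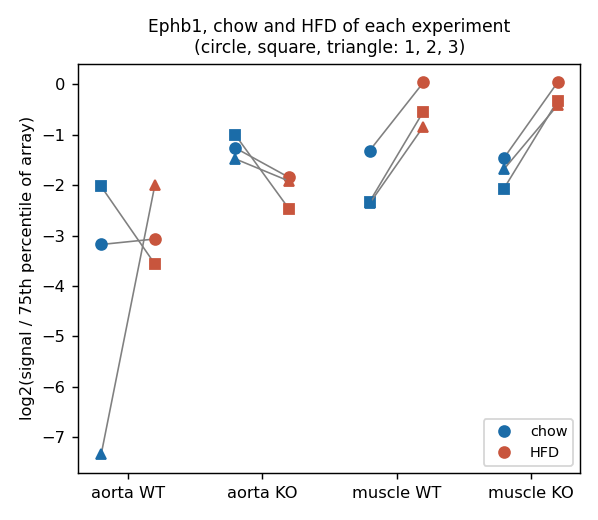
Ephb1 level (log2 of signal over the array's 75th percentile, vertical axis) on each array of aorta and muscle by strain, chow in blue and HFD in red, with lines joining the arrays of an experiment. In muscle all 6 lines go up, and in the aorta they run in both directions, with 1 WT chow array at -7.34.

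In the aorta Ephb1 was at -3.18, -2.03 and -7.34 in WT chow, -3.07, -3.57 and -2.00 in WT HFD, -1.26, -1.01 and -1.48 in KO chow and -1.85, -2.48 and -1.92 in KO HFD. The WT chow array at -7.34 was not well above background, the diets overlapped, and the mean difference was 0.24 ± 0.83. Every KO pair and the WT pair of experiment 2 were lower on HFD. The positive sign of the mean rests on the WT pair that holds the array at -7.34. The difference in diet response between aorta and muscle, with that array in the fit, was -1.29 ± 0.93 (adjusted p = 0.739, limma), so that a response particular to muscle was not shown.

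At an unadjusted p under 0.05 (limma) there were 4 genes in WT (12.1% of all probes) and 1 in KO (8.49%). Of the 34 guidance genes, 5 had an unadjusted p under 0.05 in the muscle diet mean (limma), against 16.4% of all probes: Ephb1, Plxnd1 (0.58 ± 0.15), Unc5b (0.60 ± 0.23), Epha4 (0.54 ± 0.22) and Epha1 (-0.86 ± 0.29). Plxnd1 was at 1.67, 1.60 and 1.59 in WT chow, 2.55, 2.47 and 2.00 in WT HFD, 1.18, 1.50 and 1.24 in KO chow and 1.82, 1.79 and 1.65 in KO HFD. Its HFD arrays lay above the chow arrays within each strain, and it did not pass (adjusted p = 0.154, limma). Plxnd1, Epha4 and Ephb1 were higher on HFD in all 6 pairs (5.58% of all probes) and Plxnb2 was lower (5.68%). By the methods' own test, 3 genes in each strain had an unadjusted p under 0.05 and 0 passed after adjustment. In WT the groups of Sema3a (1.64 ± 0.64) did not overlap, while Efnb1 (-0.34 ± 0.21), Epha4 (0.47 ± 0.32) and Ephb3 (0.36 ± 0.24) had the same sign in each experiment. The groups did not overlap for 3 genes in WT (14.3% of all probes) and 4 in KO (9.03%). In KO the values were -0.96 ± 0.42 for Epha1, -1.20 ± 0.74 for Epha7, 0.60 ± 0.32 for Epha4 and 0.82 ± 0.62 for Sema3b.

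For the other vascular genes the mean diet difference in muscle was -0.57 ± 0.32 for Efna1, -0.37 ± 0.20 for Efnb2, -0.02 ± 0.16 for Epha2, -0.02 ± 0.13 for Ephb4, -0.20 ± 0.15 for Robo4, -0.49 ± 0.58 for Slit2 and -0.19 ± 0.30 for Slit3. None passed, and Sema3e and Ntn4 were too dim in muscle to be tested. Beside these values, all 8 fibroblast markers had positive diet differences in muscle (median 0.98) and all 6 pericyte markers negative ones (median -0.52), and 0 of either list were called (6 and 5 at an unadjusted p under 0.05, limma). Of the macrophage markers 5 of 6 had positive differences (median 1.77) and all 7 adipocyte markers had negative ones (median -0.53), again with 0 called (2 and 1 at an unadjusted p under 0.05, limma). Their part in the diet values was not tested.

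KO and WT were compared on each diet. No guidance gene was called in aorta or muscle, where 0.0116% and 0.00387% of the probes were called in the aorta on chow and on HFD, and 0% in muscle. At an unadjusted p under 0.05 (limma) there were 2 genes in the aorta on chow (4.41% of all probes), 0 in the aorta on HFD (1.15%), 0 in muscle on chow (2.42%) and 2 in muscle on HFD (3.15%). In the aorta on chow, Ephb1 differed by 2.93 ± 1.04, for which the experiments gave 1.91, 1.02 and 5.86, Sema3d by -1.36 ± 0.50 over 5 arrays, and Sema6b by 1.35 ± 0.70, each without overlap (4 genes in all, and 6.34% of all probes). The Ephb1 value of 5.86 rests on the WT chow array at -7.34, which was not well above background. On HFD the aortic groups did not overlap for Efnb1 (-0.43 ± 0.41) and Sema4c (0.27 ± 0.32), against 4.3% of all probes. In muscle, Sema3a differed by -1.60 ± 0.61 and Plxnd1 by -0.59 ± 0.22 on HFD, and Plxnd1 by -0.31 ± 0.22 on chow, each without overlap (5.12% of all probes on HFD and 7.94% on chow).

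None of the other vascular genes passed in these comparisons. In the aorta they lay between -1.34 (Ntn4) and 0.56 (Efnb2) on chow and between -0.73 (Ntn4) and 0.67 (Sema3e) on HFD. In muscle they lay between -0.49 (Epha2) and 0.24 (Efnb2) on chow and between -0.65 (Unc5b) and 1.06 (Slit2) on HFD. The Slit2 value ran from -0.079 to 1.81 when 1 experiment was left out, and was negative without experiment 3.

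The diet response was then compared between the strains and between the tissues. No guidance gene differed between KO and WT responses after adjustment, and 0% of all probes did in either tissue (at an unadjusted p under 0.05 by limma, 0 genes in the aorta against 2.62% of all probes and 0 in muscle against 4.12%). Between aorta and muscle, 0 guidance genes and 0% of all probes were called, and 6 genes had an unadjusted p under 0.05 (limma), against 9.24% of all probes. These were Epha3 (2.73 ± 1.09), Ephb3 (1.54 ± 0.45), Efna2 (1.36 ± 0.55), Ntn1 (1.36 ± 0.59), Plxnb2 (0.96 ± 0.30) and Epha4 (-0.73 ± 0.32). Epha3, Efna2 and Ntn1 were too dim in muscle to be tested there. Among the other vascular genes the difference between tissues ranged from -0.76 ± 0.41 (Efnb2) to 1.29 ± 0.75 (Slit2).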

How the data were processed

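RNA of endothelial cells sorted from pooled mice was hybridised to 24 one-color Agilent Whole Mouse Genome arrays on 6 slides, each slide holding the 4 groups of 1 tissue and experiment. The deposited scanner files hold spot intensity, background-subtracted by the authors with Agilent Feature Extraction (version 9.1 per the submitters' processing notes, 10.5.1.1 per the file headers) and not scaled between arrays. A deposited log2 value table, made by the authors from the same arrays, served as an alternative. It differed from the values used here only by a constant on each array, so that it could change results only through scaling.

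Here log2 processed signal minus each array's 75th percentile (2390 to 5938 intensity units) was used, outlier spots were left out (1903 values), and a probe was tested where all arrays of at least 1 group were well above background (25865 probes in the aorta, 25682 in muscle, 27387 in both). Differences were fitted with limma 3.58.1 in R 4.3.3, with pairs of HFD and chow arrays as a block for diet, group means for strain, and slide as a random block (correlation 0.280) for tissue, and p-values were adjusted by Benjamini-Hochberg over all probes tested. They rest on the spread between pools of mice, 3 in each group, shared over the groups of a fit. The number of arrays limits the precision. Same-numbered samples of different diet, strain and tissue deviated together only in part (correlations of 0.00941 to 0.453, 0.0663 to 0.583 and 0.069 to 0.400). The pairing for tissue comes from the shared mice and was used only as an alternative, and that for diet comes from the methods.

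The genes and gene lists were chosen with earlier results of these data known. Genes named in the text are the 20 largest among those called between tissues, the 6 (diet) or 3 (strain) largest that kept their sign in all experiments or did not overlap, and 12 genes with known roles in vessels. No other columns of per-sample values were used. The alternatives tried were background correction by normexp (offset 50), scaling by quantiles, the deposited table, other filters on dim probes, the mean over probes of a gene, other blocks, leaving out each experiment, the methods' one-sample test, and, chosen after seeing the data, leaving out spots with a flagged local background. The fits were run on simulated data with independent noise on each array. That noise held no slide or pair correlation, so that the blocks were not tested by it. Promoter sequences came from RefSeq tables on GRCm38.p6.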

Additional observations from a re-analysis of the deposited data

Results flagged for a closer look

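Plxnb2, a semaphorin receptor, had diet differences of opposite sign in the 2 tissues. It was higher on HFD in all 6 aorta pairs (by 0.06 to 1.79, mean 0.78 ± 0.27) and lower in all 6 muscle pairs (by -0.41 to -0.04, mean -0.18 ± 0.14). Of all probes tested, 5.77% were higher in all 6 aorta pairs and 5.68% lower in all 6 muscle pairs, and neither tissue's mean difference for Plxnb2 passed the test after adjustment. The difference between the tissues was 0.96 ± 0.30 and did not pass the test after adjustment (adjusted p = 0.375, limma).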

How the results depend on the processing

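Of 183 gene results, 25 passed the test, and none of these changed sign under any alternative. Among these 183 results the tissue call was lost without experiment 2 for Efna1, Efnb2, Epha2, Ephb4, Plxnc1, Robo4, Sema6a and Sema7a. It was lost without experiment 1 for Efnb2 and Epha2. Differences were -1.92 to -1.69 for Efna1, -1.98 to -1.40 for Efnb2, -1.59 to -1.16 for Epha2, -1.51 to -1.17 for Ephb4, 2.88 to 4.55 for Plxnc1, -1.24 to -1.03 for Robo4, -2.00 to -1.56 for Sema6a and -1.58 to -1.38 for Sema7a. The tissue differences of Efnb1, Epha4, Plxna2, Sema6b and Sema6d are not among these results. Without experiment 2 only 2 genes were called lower in the aorta, Plxnd1 and Unc5b, so that the call was lost for these genes too. The number of genes lower in the aorta ranged from 2 to 15 without 1 experiment, and 6 genes in place of 16 were higher where only probes well above background on every array were tested (27 genes). The pool of mice as a block (the pairing of tissues) gave 19 genes higher and 17 lower, Ntn4 among them (adjusted p = 0.00186, limma). In the aortic diet mean, 1 gene in place of 0 was called with no replicate block and with slide as the block, which in both was Plxnc1, and the replicate block changed no other count of calls by over 1.5 times. In WT muscle 1 gene (Ephb1, adjusted p = 0.0493, limma) was called between diets where only probes well above background on every array were tested, and in the muscle diet mean 0 were called without the filter and in each fit without 1 experiment (Ephb1 difference 1.41 to 1.60). The number past 1 in all experiments was 6 to 15 in KO aorta, 0 to 4 in WT aorta and 1 to 5 in WT muscle without 1 experiment, and 8 in KO aorta at 0.75. The cause of these changes was not tested, except that leaving out an experiment leaves fewer arrays. Signals near background limit the genes that are dim in muscle.

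Results that did not pass changed sign in 74 of 2114 gene values. With normexp these were Plxnd1 -0.0073 (diet in KO aorta), Robo4 0.012 (diet in KO muscle) and -0.039 (strain in chow muscle), and Epha2 0.016 and Ephb4 0.017 (muscle diet mean). With quantile normalization they were Ephb4 -0.0034 (aortic KO minus WT response) and -0.017 (diet in KO muscle), Slit3 0.032 (diet in KO muscle), and Robo4 -0.076 (strain in HFD muscle) and -0.16 (strain in chow muscle). With the mean over probes they were Efnb2 -0.51 (strain in HFD aorta) and 0.056 (diet in WT muscle), and Slit2 0.19 (strain in chow aorta), -0.081 (aortic KO minus WT response), -0.17 (diet in KO muscle) and 0.23 (strain in chow muscle). With no replicate block Sema3e was 0.39 (aortic KO minus WT response). With flagged local backgrounds left out, Robo4 was -0.027 (strain in chow muscle) and -0.020 (muscle KO minus WT response), and Efna1 was -0.16 (muscle KO minus WT response). Without 1 experiment, signs changed as follows. For the aortic minus the muscle diet response the ranges were Plxnd1 -0.92 to 0.19 and Unc5b -0.079 to 0.83. For diet in KO aorta the ranges were Ephb4 -0.84 to 0.040 and Plxnd1 -0.22 to 0.32. For diet in WT aorta the ranges were Epha2 -1.08 to 0.043, Ephb4 -1.03 to 0.032, Ntn4 -0.29 to 0.77, Plxnd1 -0.26 to 1.22, Sema3e -2.18 to 0.41, Slit2 -0.37 to 0.90 and Slit3 -0.13 to 0.86. For the aortic diet mean the ranges were Plxnd1 -0.24 to 0.77 and Sema3e -2.66 to 0.0038. For strain in HFD aorta the ranges were Efna1 -0.078 to 0.47, Efnb2 -0.15 to 0.67, Plxnd1 -0.011 to 0.13, Slit2 -0.078 to 0.19, Slit3 -0.0026 to 0.37 and Unc5b -0.27 to 0.21. For strain in chow aorta the ranges were Efna1 -0.023 to 0.73, Ephb4 -0.016 to 0.53, Sema3e -0.025 to 0.67, Slit3 -0.85 to 0.091 and Unc5b -0.55 to 0.35. For the aortic KO minus WT response the ranges were Epha2 -0.66 to 0.41, Ephb4 -0.32 to 0.19, Plxnd1 -0.90 to 0.045, Robo4 -0.64 to 0.049, Sema3e -2.30 to 0.076 and Unc5b -0.55 to 0.28. For diet in KO muscle the ranges were Ephb4 -0.0056 to 0.060, Slit2 -0.52 to 0.80 and Slit3 -0.24 to 0.23. For diet in WT muscle the range was Slit3 -0.99 to 0.0055. For the muscle diet mean the ranges were Epha2 -0.12 to 0.11, Ephb4 -0.062 to 0.0026, Slit2 -1.26 to 0.23 and Slit3 -0.62 to 0.12. For strain in HFD muscle the ranges were Efna1 -0.17 to 0.82, Efnb2 -0.11 to 0.18, Ephb4 -0.10 to 0.24, Slit2 -0.079 to 1.81 and Slit3 -0.33 to 0.28. For strain in chow muscle the ranges were Efna1 -0.029 to 0.27, Ephb4 -0.18 to 0.13 and Robo4 -0.11 to 0.083. For the muscle KO minus WT response the ranges were Efna1 -0.15 to 0.55, Efnb2 -0.54 to 0.17 and Robo4 -0.020 to 0.24.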
